A study of Mus musculus with 6 samples.

Results

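The genes described here are 40 genes of the cell division cycle: 15 that act in or at the entry to S phase, when DNA is copied, and 25 that act from late S phase through mitosis and its exit. They were chosen by symbol, and every probe that the platform's probe table assigns to one of them was used. That gave 61 of the 25697 probes, for 37 of the 40 genes; Mki67, Ccnb1 and Aurkb were not analysed here. Of the 37 genes, 24 had a probe detected on at least 3 of the 6 arrays (11 S phase and 13 mitosis genes), and these are among the 8111 genes that were tested.

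The RNA hybridised to Illumina bead arrays came from cells sorted by fluorescence from OC-GFP mice of the C57Bl6/J strain, which carry a green fluorescent reporter of osteocalcin, a protein of cells that form mineralised matrix. GFP-positive osteoblasts came from digested calvaria, the flat bones of the skull, and GFP-positive cementoblasts, the cells that line the tooth root and lay down its mineral layer, came from extracted molars. All animals carried the reporter, none had a further treatment in the labels, and both sexes were mixed. The 3 osteoblast samples each pooled 6 mice, aged 6 weeks, 5 to 6 weeks and 6 to 7 weeks for replicates 1, 2 and 3. The 3 cementoblast samples pooled 7, 10 and 6 mice, aged 6 to 7 weeks, 5 to 6 weeks and 6 to 7 weeks. Because each array holds RNA of a pool of sorted cells, a lower signal from fewer cells of a dividing type and a lower signal from less RNA per cell cannot be told apart.

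The division cycle is driven by cyclins, whose partner kinases switch on in turn. At the end of G1, cyclin E and the E2F factors start S phase; helicase subunits (the Mcm proteins) are loaded on origins and DNA is copied with nucleotides supplied by enzymes such as ribonucleotide reductase. In mitosis Cdk1, Aurora and Polo kinases, motor proteins and a spindle checkpoint move the chromosomes apart. Mature osteoblasts and cementoblasts divide little, whereas precursors of blood cells in marrow, among them those of neutrophils, divide often. S100a8, a calcium-binding protein stored in mature neutrophils, and Elane, the elastase that neutrophil precursors make and pack into granules, are the neutrophil genes used below.

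Many of these genes moved together across the arrays, so the promoters of 5 whose signals did so are printed with the motifs known from cell cycle genes. The RefSeq promoter table on build GRCm38.p6 held 32 of the 40 genes, 12 of S phase and 20 of mitosis; it lacks Mcm4, Foxm1, Tpx2, Kif20a, Gmnn, Ccna2, Ccne2 and Aurkb. Each window ran from 250 bases before the start that this promoter table uses for the gene to 50 after. That start can differ from the first base of the gene record, and distances below are counted from it. Of each printed window 280 bases are shown, 5′ to 3′ on the gene's strand. Capitals mark 3 kinds of motif, searched on both strands: CCAAT, the box read by the factor NF-Y (ATTGG on the other strand); the cell cycle homology region, searched as TTTGAA or as its variant TTCGAA (which reads the same on both strands); and the E2F site, searched in 4 forms, of which TTCCCGC is the first form, TTCGCGC is the second form, TTGCCGC is the third form and TTGGCGC is the last form. The first 2 promoters belong to S phase genes: Mcm5, a helicase subunit (chr8:75109259-75109538, plus strand), and Rrm1, the large subunit of ribonucleotide reductase (chr7:102441445-102441724, plus strand). The other 3 belong to mitosis genes: Cenpa, the histone of centromeres (chr5:30666636-30666915, plus strand), Prc1, which crosslinks the microtubules of the dividing spindle (chr7:80294201-80294480, plus strand), and Top2a, the topoisomerase that untangles sister chromosomes (chr11:99024160-99024439, minus strand).
Mcm5: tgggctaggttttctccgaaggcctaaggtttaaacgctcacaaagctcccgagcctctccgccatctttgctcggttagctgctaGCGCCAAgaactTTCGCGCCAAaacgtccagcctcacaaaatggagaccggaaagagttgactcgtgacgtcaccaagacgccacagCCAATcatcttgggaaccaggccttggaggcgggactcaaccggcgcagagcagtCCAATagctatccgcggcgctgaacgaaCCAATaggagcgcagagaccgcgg
Rrm1: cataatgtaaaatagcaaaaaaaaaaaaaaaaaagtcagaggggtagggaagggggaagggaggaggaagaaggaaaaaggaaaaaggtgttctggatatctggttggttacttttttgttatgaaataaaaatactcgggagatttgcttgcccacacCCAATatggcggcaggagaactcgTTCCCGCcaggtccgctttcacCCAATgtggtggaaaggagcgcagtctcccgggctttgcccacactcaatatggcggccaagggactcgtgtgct
Cenpa: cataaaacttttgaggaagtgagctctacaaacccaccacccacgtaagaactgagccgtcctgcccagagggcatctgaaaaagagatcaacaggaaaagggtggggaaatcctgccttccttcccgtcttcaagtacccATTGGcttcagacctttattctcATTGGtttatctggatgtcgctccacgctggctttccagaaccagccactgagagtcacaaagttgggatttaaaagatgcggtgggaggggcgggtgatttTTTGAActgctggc
Prc1: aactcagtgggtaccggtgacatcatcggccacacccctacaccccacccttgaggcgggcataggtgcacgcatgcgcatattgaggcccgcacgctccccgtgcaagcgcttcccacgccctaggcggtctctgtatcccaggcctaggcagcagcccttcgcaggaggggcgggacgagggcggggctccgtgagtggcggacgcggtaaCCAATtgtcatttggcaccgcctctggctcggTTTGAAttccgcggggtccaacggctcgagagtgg
Top2a: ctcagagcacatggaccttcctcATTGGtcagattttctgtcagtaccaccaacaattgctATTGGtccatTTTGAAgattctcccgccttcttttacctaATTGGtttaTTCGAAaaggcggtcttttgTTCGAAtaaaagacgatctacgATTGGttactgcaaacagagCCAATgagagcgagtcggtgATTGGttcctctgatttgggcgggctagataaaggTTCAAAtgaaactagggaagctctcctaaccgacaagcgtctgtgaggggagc

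Mcm5 held 3 E2F words and 3 CCAAT boxes. Of the E2F words, TTCGCGC on the plus strand, starting 152 bases before the start used for its window, overlapped with TTGGCGC on the minus strand. Rrm1 held TTCCCGC 67 bases before its start, between CCAAT boxes, and no cell cycle homology word. Cenpa and Prc1 held CCAAT boxes followed by TTTGAA near the start (first base 16 after the start in Cenpa and 5 before it in Prc1), with no E2F word. Top2a held 6 CCAAT boxes and 4 cell cycle homology words.

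Over all 32 promoters, CCAAT was in 9 of 12 S phase genes (75%) and 17 of 20 mitosis genes (85%), against 37.92% of the 27025 genes in the table. The cell cycle homology words were in 3 of 12 S phase genes (25%) and 15 of 20 mitosis genes (75%), against 19.44% of all genes. An E2F word was in 7 of 12 S phase genes (58.33%) and 3 of 20 mitosis genes (15%), against 9.687% of all. CCAAT and a cell cycle homology word occurred together in 15 of 20 mitosis promoters and in 7.704% of all. Tyms, Birc5 and Nusap1 held none of the 3 motifs, though each read highest on cementoblast replicate 1, as the 5 printed genes did. Ccne1 and Mad2l1, which had another order, held none either. These matches describe letters in a fixed window, and neither they nor a link to the signals was tested.

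The arrays differed in brightness. Over all probes the median signal was 81.2, 95.6 and 111.1 for osteoblast replicates 1, 2 and 3 and lay between 78.5 and 82.7 for the 3 cementoblast samples, and between 8480 (osteoblast replicate 1) and 13347 (osteoblast replicate 2) probes were detected, that is, had a detection p-value under 0.05 against the negative controls of the array. Col1a1 and Bglap, matrix genes of the osteoblast lineage, were detected on all 6 arrays, and of 11 such markers with a probe 11 were detected on each array except cementoblast replicate 1, with 10. No list of cementoblast markers was used, so that label was not checked against markers of its own.

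Division genes were detected on some arrays of each tissue and much less on others. Among the 37 genes, 12, 27 and 26 had a detected probe in osteoblast replicates 1, 2 and 3, against 24, 20 and 11 in cementoblast replicates 1, 2 and 3. In percent this was 32.43, 72.97 and 70.27 for the osteoblasts and 64.86, 54.05 and 29.73 for the cementoblasts, beside 38.97, 56.22, 54.52, 44.3, 45.41 and 44.75 of all 16593 genes with a probe. Osteoblast replicate 1 and cementoblast replicate 3 were thus low in both tissues, and cementoblast replicate 3 was low although it had as many detected genes as the other cementoblast arrays. Of the 15 S phase genes, 5, 13 and 12 were detected on the osteoblast arrays and 10, 9 and 7 on the cementoblast arrays. Of 22 mitosis genes, 7, 14 and 14 were detected on the osteoblast arrays and 14, 11 and 4 on the cementoblast arrays.

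**Figure D1:**
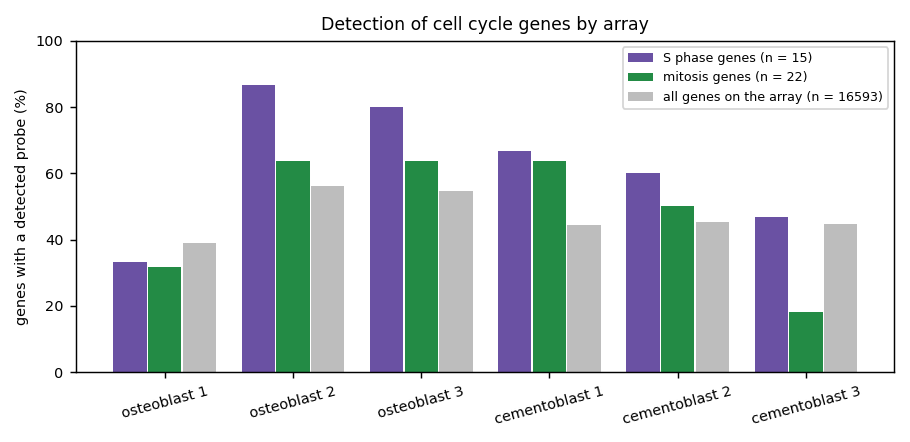
Share of genes (percent) with at least 1 probe detected at p under 0.05 on each of the 6 arrays, for the 15 S phase genes, the 22 mitosis genes with a probe and all 16593 genes; a bar is 1 array and has no error. Osteoblast replicate 1 and cementoblast replicate 3 have the lowest bars of both division sets, 18.18% for mitosis on cementoblast replicate 3.

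In the non-normalized table each of the 24 tested division genes was highest on osteoblast replicate 2 or 3, the arrays with the highest medians. The helicase subunit Mcm4 gave 99.7, 602.2 and 654.1 on the osteoblast arrays and 181.6, 206.4 and 126 on the cementoblast arrays. Mcm5 gave 89.6, 303.4 and 317.5, then 149.7, 101.9 and 97.2. Cenpa gave 92.8, 461.7 and 471, then 169.5, 116.2 and 107.3. In these raw signals 22 of the 24 tested genes were highest on osteoblast replicate 3, the brightest array, as were 7548 of all 8111 genes, so raw signals cannot be set side by side between arrays. Within the cementoblasts, whose medians were close, 23 of 24 were higher on replicate 1 than on replicate 3, against 26.61% of all genes.

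After background correction and quantile normalization (log2 scale, where values near 4 lie at background), the S phase genes were spread widely within each tissue. Mcm4 read 6.80, 8.31 and 7.61 on osteoblast replicates 1 to 3 and 8.69, 8.96 and 6.83 on cementoblast replicates 1 to 3. Mcm5 read 6.10, 7.17 and 6.42, then 8.19, 6.91 and 5.83. Rrm1 read 6.00, 6.76 and 6.47, then 7.53, 6.66 and 5.99. In each of these 3 genes osteoblast replicate 1 and cementoblast replicate 3 were the lowest arrays and the groups overlapped; in Mcm5 cementoblast replicate 1 lay 5.11-fold above cementoblast replicate 3.

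Mcm6, a further helicase subunit, read 5.51, 6.75 and 6.60 in osteoblasts and 7.51, 6.49 and 5.67 in cementoblasts, and its 2 other kept probes gave group differences of 0.36 and 0.37 beside 0.27. Tyms, which makes thymidylate for DNA, read 5.58, 6.17 and 5.60, then 6.97, 5.58 and 5.28. In both genes cementoblast replicate 1 was highest, and osteoblast replicate 1 and cementoblast replicate 3 were the lowest. Rrm2, the small subunit of ribonucleotide reductase, read 4.50, 4.92 and 4.32 in osteoblasts and 6.66, 5.44 and 4.16 in cementoblasts, and was detected on 1 osteoblast and 2 cementoblast arrays. Its second kept probe went the other way (difference -0.13 beside 0.84), so no direction is given for it. Mcm3 read 4.29, 5.03 and 4.81, then 5.22, 6.16 and 4.20, and Mcm2 read 4.60, 5.47 and 5.01, then 5.72, 5.30 and 4.61.

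The remaining S phase genes stood near background. Pcna, the clamp that holds DNA polymerase on its template, read 4.27, 5.30 and 4.58 in osteoblasts and 4.85, 4.37 and 4.20 in cementoblasts. Cdc45, which activates the helicase, read 4.92, 4.87 and 4.85, then 5.43, 4.55 and 4.43. Ccne1, cyclin E1, read 4.37, 4.42 and 4.57, then 4.20, 4.63 and 4.79, and was the 1 S phase gene that was lowest on cementoblast replicate 1. Each was detected on 2 osteoblast arrays and 1 cementoblast array.

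The mitosis genes had the same spread. Cenpa read 6.37, 7.87 and 7.07 on the osteoblast arrays and 8.53, 7.45 and 6.27 on the cementoblast arrays, and it was the 1 mitosis gene whose chosen probe was detected on all 6. Prc1 read 5.30, 6.58 and 6.28, then 7.84, 6.63 and 4.69. Top2a read 5.84, 6.38 and 5.90, then 7.30, 5.98 and 4.65. In all 3 genes cementoblast replicate 1 was highest and cementoblast replicate 3 lowest, and the osteoblast arrays lay between them; Prc1 and Top2a were not detected on cementoblast replicate 3.

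Birc5 (survivin, of the chromosomal passenger complex) read 5.18, 5.78 and 5.58 in osteoblasts and 6.84, 5.63 and 4.38 in cementoblasts; its other 2 kept probes differed by 0.17 and 0.67 between the groups beside 0.11. Cdk1, the kinase that drives entry into mitosis, read 5.73, 5.73 and 5.20, then 6.57, 5.32 and 4.35. Cdc20, an activator of the anaphase-promoting complex, read 4.86, 5.41 and 5.30, then 6.37, 5.86 and 4.62. All 3 again had their extremes on cementoblast replicates 1 and 3. Nusap1, which bundles spindle microtubules, read 4.48, 5.49 and 4.93, then 6.49, 5.30 and 5.18. Aurka, the Aurora kinase of spindle poles, read 4.55, 4.78 and 4.91, then 6.16, 5.60 and 4.67. In Nusap1 and Aurka osteoblast replicate 1 was the lowest array, and the groups overlapped in both.

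Plk1, the Polo kinase, read 4.20, 4.98 and 4.70 in osteoblasts and 5.67, 4.93 and 4.96 in cementoblasts. The motor Kif23 of the spindle midzone read 4.36, 5.51 and 5.15, then 5.72, 6.16 and 4.28, and the motor Kif11, which pushes spindle poles apart, read 4.15, 5.20 and 4.67, then 5.11, 4.37 and 4.40. These 3 motors and kinases overlapped between the groups. Foxm1, a transcription factor of late cell cycle genes, read 4.44, 5.09 and 4.87, then 4.63, 4.80 and 4.71, all near background; its 2 kept probes differed between the groups by 0.02 and -0.09. Mad2l1, of the spindle checkpoint, had another order: 5.61, 5.51 and 5.49 in osteoblasts and 5.54, 4.70 and 4.95 in cementoblasts.

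**Figure D2:**
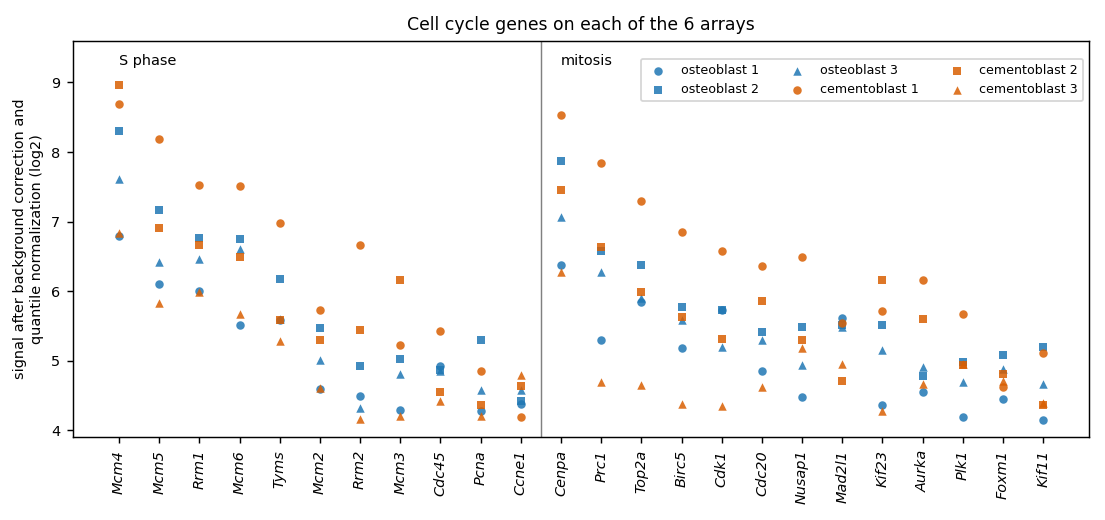
Signal of each of the 24 tested genes (log2, after background correction and quantile normalization) on the 6 arrays, 1 point per array, S phase genes on the left and mitosis genes on the right; levels of different genes are not comparable because their probes differ. Cementoblast replicate 1 (filled orange circle) is the top point in 16 of the 24 genes and cementoblast replicate 3 (orange triangle) the bottom one in 14.

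A further 13 genes were on the array but did not reach detection on 3 arrays with a single probe. In S phase these were Ccne2, Cdc6 (which loads the helicase), Mcm7 and Gmnn (geminin, which blocks reloading); in mitosis they were the cyclins Ccna2 and Ccnb2, the checkpoint kinases Bub1, Bub1b and Ttk, the motors Kif20a and Cenpe, Tpx2 and Ube2c. Gmnn and 7 of the 9 mitosis genes (Ccna2, Ccnb2, Bub1, Ttk, Kif20a, Ube2c and Cenpe) were detected on no array. Ccna2, cyclin A2, gave raw signals of 80.9, 92.1 and 100.3 on the osteoblast arrays and 79.1, 74.4 and 81.5 on the cementoblast arrays, each below its array's median over all probes. Bub1b was detected on 2 arrays, osteoblast replicates 2 and 3, and Tpx2 on cementoblast replicate 1 alone.

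No cell cycle gene passed the test between cementoblasts and osteoblasts. With limma and Benjamini-Hochberg adjustment over all genes, 26 of 8111 genes were called (0.321%), 12 higher and 14 lower in cementoblasts, and 0 of the 24 cell cycle genes were among them. At an unadjusted limma p under 0.05 there were 561 genes in all (6.92%) and again 0 of the 24. The groups did not overlap for 916 of all genes (11.3%) and for 0 of the 24. The smallest adjusted p by limma was that of Aurka (0.8305), with a difference of 0.73 on the log2 scale (SE 0.39, 95% interval -0.17 to 1.63, 3 against 3 arrays).

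The fitted differences, cementoblast minus osteoblast on the log2 scale, had a median of 0.27 over the 11 S phase genes, with 9 above 0 and 2 below. Over the 13 mitosis genes the median was 0.31, with 8 above 0 and 5 below, and over all genes tested it was -0.02. The brightest probe of Rrm2 gave 0.84, but the mean of its kept probes gave 0.35. Next were Aurka (0.73), Nusap1 (0.69), Mcm4 (0.59) and Plk1 (0.56); the lowest were those of Mad2l1 (-0.47) and Pcna (-0.25). For Mcm4, detected on all 6 arrays, the interval ran from -0.83 to 2.01, and for Cenpa from -1.09 to 1.71, so both intervals hold a log2 difference of 1 as well as 0. The sign of both medians rested on single arrays: without cementoblast replicate 1 they were -0.08 for S phase and -0.24 for mitosis, without cementoblast replicate 3 they were 0.69 and 0.73, and without osteoblast replicate 1 the mitosis median was -0.05 (0.06 for S phase). With the mean of S100a8 and Elane as a covariate they were -0.16 and -0.34.

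**Figure D3:**
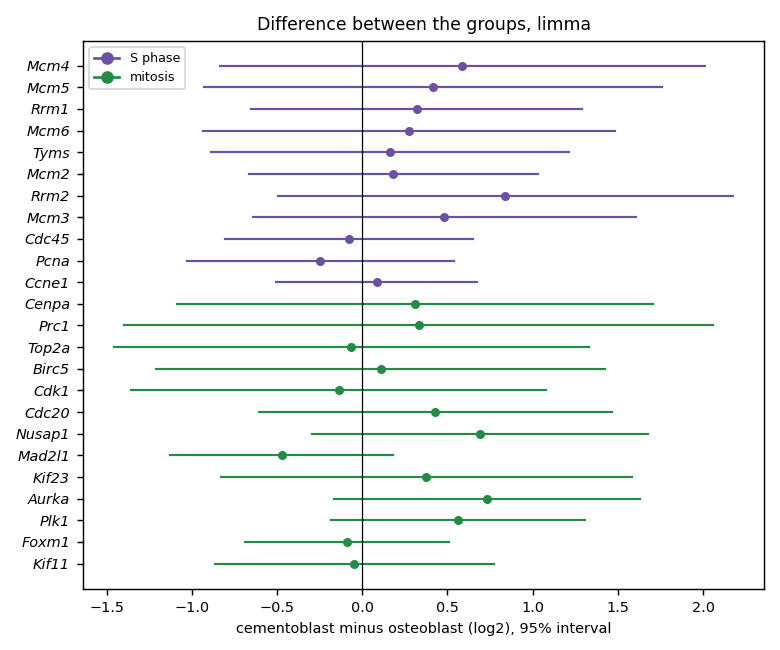
Difference of each tested gene between the groups (cementoblast minus osteoblast, log2; point) with its 95% interval from limma (line), 3 against 3 arrays, in the order of the plot by array. Every interval holds 0; the points run from -0.47 (Mad2l1) to 0.84 (Rrm2, whose second kept probe gave -0.13).

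The spread lay between arrays of the same tissue. The range over the 3 cementoblast arrays exceeded the size of the group difference in 24 of 24 genes, as it did in 7121 of all 8111. Cementoblast replicate 1 was the highest array for 16 of 24 genes (66.67%), against 16.36% of all genes, and cementoblast replicate 3 or osteoblast replicate 1 was the lowest for 22 of 24 (91.67%), against 37.86%. The median of cementoblast replicate 1 minus replicate 3 was 1.51, and that of osteoblast replicate 2 minus replicate 1 was 0.75, where all genes gave -0.14 and -0.04. No test was made of these orders, which were noted in the data.

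The order within the cementoblasts held under each scaling: replicate 1 exceeded replicate 3 in 22 of 24 genes after background correction and quantile normalization, and in 23 of 24 with the submitters' values, in raw signals and after scaling each array to its 75th percentile. Over all genes it did so in 42.72%, 44.32%, 26.61% and 37.17%. The order within the osteoblasts did not hold. Replicate 2 exceeded replicate 1 in 22 of 24 after quantile normalization (47.45% of all genes) and in 20 of 24 with the submitters' values (46.62%). After scaling to the 75th percentile it did so in 10 of 24, against 59.13% of all genes. There osteoblast replicate 3 became the lowest array for 15 of the 24, and for 2518 of all 8111 genes. That scaling does not correct background. Quantile normalization without background correction gave 22 of 24 for the osteoblast order. Scaling to the 75th percentile left the mean over all genes at 0.31 on cementoblast replicate 1 and at 0.66 on osteoblast replicate 3. Quantile normalization after background correction kept the arrays' means between 6.39 and 6.45. The cause of the change in order was not tested.

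S phase and mitosis genes moved together. The mean log2 signal of the 11 S phase genes was 5.18, 5.92 and 5.53 for osteoblast replicates 1 to 3, then 6.45, 5.91 and 5.09 for cementoblast replicates 1 to 3. That of the 13 mitosis genes was 5.01, 5.72 and 5.39, then 6.37, 5.59 and 4.78. Both means put the arrays in the same order, with cementoblast replicate 1 first, osteoblast replicate 2 and cementoblast replicate 2 next, and cementoblast replicate 3 last. Over the 6 arrays the means had r = 0.989, a description of arrays that share their normalization.

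The neutrophil genes were read on the same arrays. Elane read 6.07, 8.57 and 7.39 in the osteoblast samples, then 10.36, 8.34 and 5.77 in the cementoblast samples. S100a8 read 8.80, 12.28 and 12.42, then 14.21, 12.81 and 11.36. Elane ranked the arrays as the S phase and mitosis means did, while S100a8 shared with them that cementoblast replicate 1 was first, and put osteoblast replicate 1 last and cementoblast replicate 3 next to last. In raw signals Elane gave 89.4, 708.7 and 570.8, then 469.5, 156 and 95.8.

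Across the 6 arrays, 15 of the 24 cell cycle genes had a positive Pearson correlation with Elane at an unadjusted two-sided exact permutation p under 0.05, against 8.04% of all genes. These were 7 of 11 S phase and 8 of 13 mitosis genes, and the median r was 0.88 where all genes gave -0.18. Cenpa had r = 0.993 (rho = 1), Rrm1 r = 0.990 (rho = 1), Mcm5 r = 0.986 (rho = 1) and Prc1 r = 0.983 (rho = 0.943). The exact permutation p of r was 0.001389 for Cenpa, Rrm1 and Mcm5, the smallest that 720 pairings of 6 arrays can give, and 0.002778 for Prc1. The exact permutation p of rho was 0.002778 for the first 3 and 0.01667 for Prc1. None of the 24 passed after Benjamini-Hochberg adjustment over the 8110 correlations with Elane, where the smallest adjusted p was 0.131 (0.2067 for rho).

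With S100a8, 7 of the 24 genes had a positive r at an unadjusted exact permutation p under 0.05, against 6.17% of all genes, with a median r of 0.74. Mcm6 had r = 0.901 (exact permutation p = 0.01389, adjusted p = 0.2313; rho = 0.771, exact permutation p = 0.1028). Aurka was the gene whose order of arrays was that of S100a8 (rho = 1, exact permutation p = 0.002778, adjusted p = 0.3093; r = 0.802, exact permutation p = 0.04306, adjusted p = 0.3074). Among the 6 genes whose probe was detected on all arrays (Mcm4, Mcm5, Mcm6, Rrm1, Tyms and Cenpa), 6 reached a positive r at an exact permutation p under 0.05 with Elane and 3 with S100a8, against 4.94% and 3.3% of all genes detected on all arrays.

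The genes that did not reach an exact permutation p under 0.05 with Elane were Ccne1, Cdc45, Mcm3, Pcna, Cdk1, Plk1, Kif11, Foxm1 and Mad2l1. Several stood near background or had another order. Cdk1 (r = 0.776, exact permutation p = 0.07222) and Plk1 (r = 0.79, exact permutation p = 0.075) were each detected on 5 arrays. Mcm2, which was also dim, did reach it (r = 0.985, exact permutation p = 0.002778). Ccne1 had r = -0.644 with Elane (exact permutation p = 0.1597), Mad2l1 r = 0.172 (exact permutation p = 0.7333) and Foxm1 r = 0.288 (exact permutation p = 0.5833). For Foxm1 the value depended on the probe: its other kept probe gave r = 0.742 (exact permutation p = 0.09028). Leaving out the 2 arrays farthest from the median of Elane, cementoblast replicates 1 and 3, r was above 0 before and after in 20 of 24 genes, and the median over the 24 was then 0.87. Cdc45, Cdk1 and Mad2l1 turned negative and Ccne1 turned positive. Then r was 0.982 for Cenpa and 0.993 for Rrm1, but -0.205 for Cdk1 and -0.546 for Cdc45, whose relation rested on those arrays. For S100a8, without osteoblast replicate 1 and cementoblast replicate 1, r was above 0 before and after in 21 of 24, and the median over the 24 was then 0.78. Plk1 turned from 0.898 to -0.271 and Nusap1 fell from 0.855 to 0.086, so the relation of both to S100a8 rested on those arrays. In each tissue the array with the lowest Elane signal also had the lowest S phase and mitosis means, and the array with the highest had the highest.

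A fit with tissue and the neutrophil gene in 1 model, added after the data were seen, gave the relation within tissues, with limma and adjustment over all genes. The slope on Elane was positive and past the test in 8 of 24 cell cycle genes (Mcm5, Mcm6, Rrm1, Rrm2, Birc5, Cenpa, Prc1 and Top2a), against 3.23% of all genes; for Rrm2 the second kept probe gave r = 0.585 with Elane (exact permutation p = 0.2222), so its value depended on the probe. Prc1 had a slope of 0.649 per log2 unit of Elane (SE 0.077, limma adjusted p = 0.01026) and Cenpa one of 0.515 (SE 0.069, limma adjusted p = 0.01396). The call rested on single arrays and on the scaling. Without cementoblast replicate 1 limma called 0 of 24, against 0.9% of all genes. Without cementoblast replicate 3 it called 0 of 24 and 0 of all 8110 genes. Each of these fits had 13 of 24 at an unadjusted limma p under 0.05, against 11% and 7.07% of all genes. Limma called 1 of 24 without osteoblast replicate 2 (1.65% of all genes), 3 without osteoblast replicate 3 (2.43%) and 3 with the submitters' values (1.13%). After scaling to the 75th percentile it called 0 of 24 and 0 of all 8110 genes, with 7 of 24 at an unadjusted p under 0.05 (2.92% of all genes). For S100a8 limma called 0 of 24 in the same fit, against 0.21% of all genes. There 12 of 24 had a positive slope at an unadjusted limma p under 0.05, against 8.53% of all genes. The smallest limma adjusted p of a member was 0.1277.

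The counts by correlation depended on the scaling too. With the submitters' values 15 of 24 genes reached an exact permutation p under 0.05 with Elane, and with raw log2 signals 19 did, where the background over all genes was 7.23% and 10.9%. In raw log2 signals, however, the median r with Elane was 0.675 over all genes, beside 0.845 over the 24. After scaling to the 75th percentile, an alternative added after the data were seen, 4 of 24 reached that p with Elane (16.7%, against 2.33% of all genes), and the median r was 0.11. With S100a8 the count was 3 of 24 with the submitters' values, 2 with raw log2 signals and 2 after scaling to the 75th percentile, beside 7, where all genes gave 5.25%, 2.1% and 1.11%. The median r with S100a8 was -0.035 after scaling to the 75th percentile. By Spearman's rho, 4 of 24 reached an exact permutation p under 0.05 with S100a8 (3.847% of all genes) and 12 with Elane (6.054%).

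**Figure D4:**
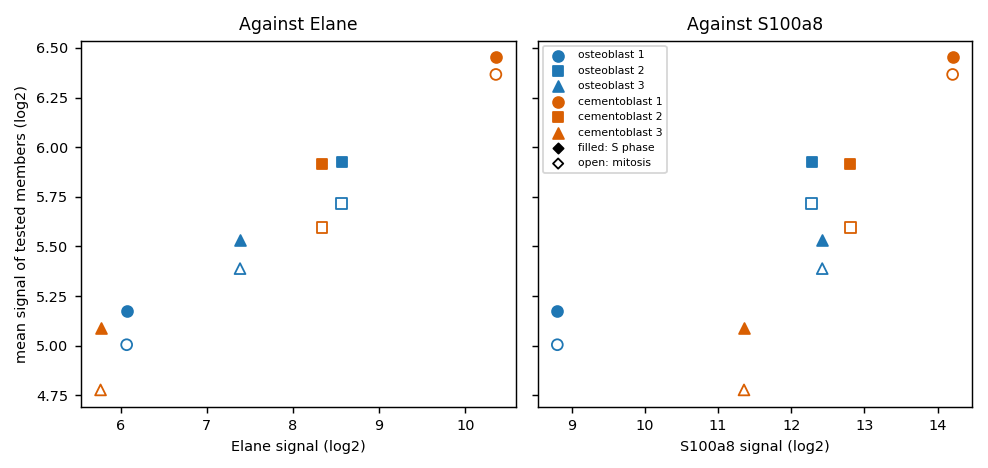
Mean signal of the 11 S phase genes (filled) and the 13 mitosis genes (open) against Elane (left) and S100a8 (right), log2 after background correction and quantile normalization, 1 pair of points per array; blue is osteoblast, orange cementoblast. Both means climb with Elane from cementoblast replicate 3 (5.77) to cementoblast replicate 1 (10.36), and osteoblast replicate 1 is the leftmost array for S100a8.

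Markers of other cells moved with the same arrays. The mean log2 signal of 8 neutrophil precursor genes (Mpo, Prtn3, Elane and others) was 5.54, 7.36 and 6.65 on the osteoblast arrays and 8.88, 7.33 and 5.32 on the cementoblast arrays, with r = 0.994 to the mitosis mean. That of 11 granule genes of mature neutrophils was 5.89, 9.36 and 8.87, then 10.70, 9.36 and 7.53 (r = 0.876). That of 9 macrophage genes, Lyz1 among them, was 5.21, 9.57 and 8.12, then 9.29, 8.14 and 5.32 (r = 0.879). All 3 kinds of marrow-derived cell thus read lowest on osteoblast replicate 1 and cementoblast replicate 3. The means of the erythroid, endothelial and T and NK cell lists below were lowest on the same arrays, so this order of means was not particular to neutrophils and macrophages. Gene by gene, these arrays were the lowest 2 for 2 of 5 erythroid, 4 of 8 endothelial and 1 of 2 T and NK cell genes. They were so for 7 of 8 precursor, 11 of 11 granule and 9 of 9 macrophage genes, and for 12.38% of all genes.

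Summed over linear values, the precursor list ran from 540.7 to 2372 in osteoblasts and from 383.4 to 7882 in cementoblasts, and the granule list from 1102 to 13370 and from 4963 to 43930. The macrophage list ran from 494.3 to 11880 and from 913.4 to 17460. Of the lists' genes with a probe, 8 of 8 precursor and 9 of 9 macrophage genes were detected on some array, and of 13 granule genes Mmp8 was on none. Their part in the signal of the division genes was not tested.

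Other lists fitted the order less closely. Over 5 erythroid genes, Hba-a1 among them, the mean was 4.96, 7.66 and 6.86, then 7.15, 7.99 and 6.73 (r = 0.526), with sums of 325.5 to 3858 in osteoblasts and 1789 to 7422 in cementoblasts; Hbb-b2 was on no array. Over 8 endothelial genes, Eng among them, the mean was 4.94, 5.05 and 5.63, then 6.79, 6.61 and 4.57 (r = 0.802). Of these 8 genes, 7 were highest on cementoblast replicate 1. Endothelial sums ran from 305.8 to 473.7 in osteoblasts and from 246.4 to 1047 in cementoblasts, and Kdr was on no array. Oral epithelium had 3 tested genes, Ambn among them. Their mean was 5.12, 4.55 and 4.58 in osteoblasts and 9.56, 9.81 and 5.18 in cementoblasts (r = 0.622). Cementoblast replicate 2 thus had a higher epithelial mean than replicate 1 and lower means of division genes. Gene by gene this did not hold, as 2 of the 3 were highest on cementoblast replicate 1. Of 12 epithelial genes with a probe, 11 were detected on cementoblast replicate 1 and 10 on cementoblast replicate 2, but 9 were not tested. Epithelial sums ran from 71.46 to 112.3 in osteoblasts and from 154.2 to 3801 in cementoblasts, and Amelx was on no array. B lineage (4 tested of 10, with Ms4a1, Pax5, Rag1 and Rag2 on no array), T and NK cell (2 of 8, with Cd3e, Cd3g, Cd8a and Klrb1c on no array) and osteoclast genes (3 of 9, with Calcr, Dcstamp and Ocstamp on no array) had r of 0.540, 0.687 and -0.046. Their sums ran from 112.9 to 174.6, from 385.4 to 842.1 and from 1430 to 2199 in osteoblasts, and from 112.2 to 165.5, from 45.61 to 369.5 and from 993.2 to 1665 in cementoblasts. Osteoblast genes ran the other way, with a mean of 11.57, 10.95 and 11.16 in osteoblasts and 10.14, 9.88 and 11.35 in cementoblasts (r = -0.751), and sums from 72680 to 80270 and from 37850 to 86520. The number of detected probes had r = 0.196 to both division means.

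**Figure D5:**
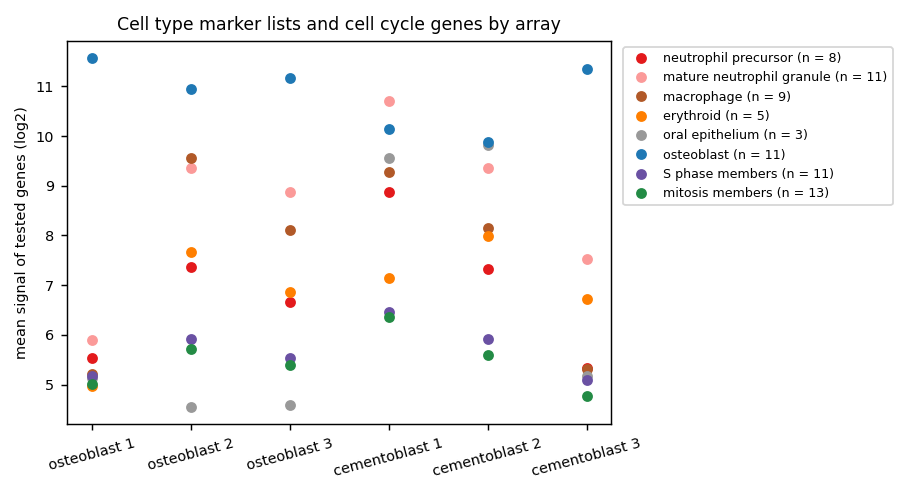
Mean signal (log2) of the tested genes of 6 cell type marker lists and of the S phase and mitosis genes on each of the 6 arrays; n is the number of tested genes in a list, and a point is 1 array. Precursor, granule, macrophage and erythroid lists are lowest on osteoblast replicate 1 and cementoblast replicate 3, where the division genes are also lowest, and the osteoblast list is highest there.

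Further genes of the pathway were read from the same fit, and the 2 of each list with the smallest p are named. Among those tested, the groups did not overlap for 1 of 25 replication genes and 1 of 19 mitosis genes, against 11.3% of all genes. Of 36 further replication genes with a probe, 25 were tested and 0 called, with a median difference of 0.03; 17 of them were highest on cementoblast replicate 1. Of 41 further mitosis genes, 19 were tested and 0 called, with a median of 0.22 and 18 above 0; 16 were highest on cementoblast replicate 1. Lig1, which seals nicks in new DNA, read 4.84, 5.83 and 5.27 in osteoblasts and 6.50, 6.08 and 5.87 in cementoblasts, groups that did not overlap (difference 0.84, SE 0.33, limma adjusted p = 0.6447). Dnmt1, the maintenance DNA methyltransferase, differed by 0.57 (SE 0.43, limma adjusted p = 0.937). Cdc25b, the phosphatase that activates Cdk1, read 4.22, 4.60 and 4.69, then 5.43, 5.39 and 4.93, without overlap (difference 0.74, SE 0.27, limma adjusted p = 0.5685), and the motor Kif4 differed by 0.44 (SE 0.41, limma adjusted p = 0.9509).

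The regulators of G1 were read in the same way. The groups did not overlap for 2 of the 15 tested, against 11.3% of all genes. Of 18 G1 cyclins, kinases and E2F genes with a probe, 15 were tested and 0 called, with a median of 0.25; 5 were highest on cementoblast replicate 1, and the median r with Elane was 0.09. Ccnd1, cyclin D1, which links growth signals to the cycle, read 8.01, 8.29 and 7.92 in osteoblasts and 8.62, 9.26 and 9.03 in cementoblasts. Each cementoblast array lay above each osteoblast array, cementoblast replicate 3 included (difference 0.90, SE 0.27, limma adjusted p = 0.3852). Ccnd3, cyclin D3, read 8.45, 8.67 and 8.61, then 9.38, 8.95 and 9.29, also without overlap (difference 0.63, SE 0.24, limma adjusted p = 0.6267).

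Of 19 brakes on the cycle with a probe (inhibitors of cyclin-dependent kinases, retinoblastoma and p53 genes and others), 15 were tested and 0 called, with a median of -0.08, and the median r with Elane was -0.13. Ccng2, cyclin G2, which is linked to exit from the cycle, read 6.38, 6.07 and 5.53 in osteoblasts and 7.01, 6.74 and 6.28 in cementoblasts (difference 0.69, SE 0.32, limma adjusted p = 0.7566). Ccng1, cyclin G1, a target of p53, read 7.77, 7.74 and 7.94, then 7.41, 7.52 and 7.32, groups that did not overlap (difference -0.40, SE 0.22, limma adjusted p = 0.8622). Neither gene passed the test, and the groups did not overlap for 1 of the 15 tested brakes, against 11.3% of all genes.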

How the data were processed

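Bead signals on 25697 probes were used for 3 osteoblast and 3 cementoblast arrays. In the deposited non-normalized table a signal is a linear intensity. Per the file headers, each is followed by a detection p-value. The second deposited table holds intensities normalized by the submitters, whose processing notes name lumi (method and image processing: not given in the sources used here). Columns were matched by title, except those of replicate 3: their names carry 3 where the titles carry 4, and they were matched by tissue code and by the description, which gives 3. RNA was amplified and biotinylated before hybridisation, per the labels' protocols.

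Background was corrected and arrays were quantile normalized with neqc (offset 16) of limma 3.58.1 in R 4.3.3. Probes detected at p under 0.05 on at least 3 of 6 arrays were kept (11198), and the brightest kept probe of a gene by its mean over all arrays stood for it, which left 8111 genes. Differences were fitted with lmFit and eBayes on group and adjusted by Benjamini-Hochberg over all genes at 0.05; the fit was tested on simulated data. Correlations used 720 pairings of the arrays, adjusted over all genes for each neutrophil gene. Precision is limited by the number of arrays; the spread is that between pools of mice. All members may be named; of each pathway list the genes past the test are named, or else the 2 with the smallest p, and of cell type lists S100a8, Elane and the brightest gene, beside examples of a list. The members, lists and tests were chosen with earlier results of these data known. Alternatives were the submitters' values, other scalings, filters, probe and variance choices, blocks, covariates and leaving out each array.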

Additional observations from a re-analysis of the deposited data

How the results depend on the processing

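The count of cell cycle genes past the test was 0 under each of the 19 alternatives run, as was that of the further pathway lists; the smallest adjusted p of a member by limma was 0.1111 (Aurka without cementoblast replicate 3, where 7 members and 1349 of all 8111 genes had an unadjusted p under 0.05), and without any filter 0 of 37 were called; 6 members were tested under detection on all 6 arrays and 20 under a detection p under 0.01. The count over all genes, 26, was 14 with the submitters' values, 15 without background correction, 0 with scaling to the 75th percentile (495 at an unadjusted p under 0.05), 8 without a filter, 6 with detection on all 6 arrays, 40 with trend and robust variance, 199 with array weights, 74 with the title number as a random block, 4 with a covariate for detected probes and 52 with one for S100a8 and Elane. With a replicate block it was 0 (568 at an unadjusted p under 0.05), and the block changed no call of a member. Arrays of the same replicate number had correlations of deviations of -0.356, 0.362 and 0.09 for replicates 1, 2 and 3. Other pairs ran from -0.584 to 0.487. With 3 arrays per group these values cannot decide whether the samples are paired. The titles of replicates 2 and 3 share the numbers 28 and 4 between the tissues, and those replicates also share age ranges. Whether the numbers mark a shared day or litter is not known. Leaving out 1 array gave 0 to 171, 0 without osteoblast replicate 3 (367 at an unadjusted p under 0.05) or cementoblast replicate 2 (388), 3 without osteoblast replicate 2, 10 without cementoblast replicate 1, 15 without osteoblast replicate 1 and 171 without cementoblast replicate 3. The cause of these changes was not tested. The median of the mitosis genes was -0.336 with S100a8 and Elane as covariate, beside 0.31. Over the arrays left out it ran from -0.245 to 0.727, and that of the S phase genes from -0.083 to 0.685. Among single members, the sign of the difference changed in 13 of 24 with scaling to the 75th percentile, in 10 with the neutrophil covariate and in 8 without cementoblast replicate 1. Members rising with S100a8 at an exact permutation p under 0.05 numbered 7 of 24 (6.17% of all genes). They numbered 3 with the submitters' values (5.25% of all genes), 2 with non-normalized signals (2.1%), 4 by Spearman's rho (3.847%) and 2 with scaling to the 75th percentile (1.11%). With Elane they numbered 15 (8.04%), then 4 with that scaling (2.33%) and 12 by rho (6.054%). With tissue in the model, members past the test with Elane numbered 8 (3.23% of all genes). They numbered 3 with the submitters' values (1.13%), 3 without background correction (1.16%) and 0 with scaling to the 75th percentile (0% of all genes). Leaving out 1 array gave 0 to 7 members (0 to 3.06% of all genes). Most members were dim: 6 of 24 had a probe detected on all arrays, so values near background bound the others only loosely.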
